A study of Mus musculus with 4 samples.

Results

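Glycolysis splits glucose into pyruvate through a chain of cytosolic enzymes, and lactate dehydrogenase then converts pyruvate and lactate into each other. In the testis, Sertoli cells are known to take up glucose and export lactate through monocarboxylate transporters, and meiotic and post-meiotic germ cells import that lactate. Spermatocytes and spermatids also switch on their own copies of several glycolytic enzymes, some of which are later anchored in the sperm tail and supply ATP for motility. The 41 genes described here cover that route: glucose and fructose transporters, hexokinases, phosphofructokinases and their regulators, the enzymes down to pyruvate kinase, lactate dehydrogenases, lactate transporters with their chaperone, and the E1 alpha subunits of pyruvate dehydrogenase. They were chosen by symbol among the 49492 gene rows of the count table, and all 41 were found. The 7 germ-cell isozymes among them are Aldoart1, Aldoart2, Gapdhs, Pgk2, Eno4, Ldhc and Pdha2, and the other 34 are called the other members. Some of the other members are also abundant in germ cells, so these names do not separate germ cells from somatic cells.

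The data are RNA sequencing counts from whole testis, in 4 libraries. By the labels, every library came from a male C57BL/6J mouse treated with LPS (lipopolysaccharide, which is part of the outer membrane of Gram-negative bacteria and triggers innate immune responses). In 2 libraries Spry1, which dampens signals from growth factor receptors, was knocked down with a short hairpin (shSpry1), and 2 carried a control hairpin (shControl, genotype given as WT). The sources used here give neither the route of the hairpin, the LPS dose and time, nor the age of the mice. They do not say whether replicates were separate animals, and each p-value covers only the variation among these libraries, which may be technical. In the table the 2 columns of each group are named LPS or NC with a replicate number. NC was read as shControl and LPS as shSpry1 from the headings alone, although LPS stands in the titles of all 4 samples. Should the names stand for mice with and without LPS, then that is the contrast below, and for this reason the text speaks of LPS columns and NC columns.

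Several of these genes have near-identical relatives, which decides how far a read can be assigned. The coding sequence of Aldoart1, an aldolase gene of germ cells, was 93.9% identical to that of Aldoa, and Aldoart2 was 91.8% identical to Aldoa. The other germ-cell isozymes had diverged further from their relatives: 79.3% identity for Pgk2 against Pgk1, 75.6% for Pdha2 against Pdha1, 73.9% for Ldhc against Ldha, 71.5% for Gapdhs against Gapdh and 62.2% for Eno4 against Eno1. The lines below show, for 4 pairs, a stretch of 60 coding bases whose identity was closest to that of the whole pair, read 5′ to 3′ from the mm10 genome with the GENCODE release M21 annotation. Capitals mark the bases at which a pair differs, and they show how many differences a short read can use to tell the germ-cell gene from its relative.
Aldoart2: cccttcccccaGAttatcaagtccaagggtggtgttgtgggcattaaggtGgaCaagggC
Aldoa: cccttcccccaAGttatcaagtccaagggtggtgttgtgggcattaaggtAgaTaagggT
Gapdhs: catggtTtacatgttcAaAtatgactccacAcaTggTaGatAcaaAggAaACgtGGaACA
Gapdh: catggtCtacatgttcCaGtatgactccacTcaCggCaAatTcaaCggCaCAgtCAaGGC
Pgk2: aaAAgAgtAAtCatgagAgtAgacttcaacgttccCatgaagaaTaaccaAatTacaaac
Pgk1: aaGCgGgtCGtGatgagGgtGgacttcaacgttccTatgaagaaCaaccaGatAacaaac
Ldhc: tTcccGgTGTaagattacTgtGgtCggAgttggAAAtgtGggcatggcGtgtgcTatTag
Ldha: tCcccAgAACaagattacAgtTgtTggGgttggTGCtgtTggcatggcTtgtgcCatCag
The aldolase pair differed at 5 of the 60 bases, the phosphoglycerate kinase pair at 12, the lactate dehydrogenase pair at 16 and the glyceraldehyde phosphate dehydrogenase pair at 17.

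In mm10, 4 of the 7 germ-cell isozymes were single uninterrupted exons and none of the other members was (0 of 34). These are Aldoart1 on chromosome 4 from 72850583 to 72852634, Aldoart2 on chromosome 12 from 55565239 to 55566896, Pgk2 on chromosome 17 from 40207018 to 40208609 and Pdha2 on chromosome 3 from 141210004 to 141212355. Pgk2 and Pdha2 are autosomal, and their relatives Pgk1 and Pdha1 lie on the X chromosome. Gapdhs has 12 exon blocks on chromosome 7 from 30729775 to 30743681. Ldhc, on chromosome 7 from 46861203 to 46878142, lies on the same strand just downstream of Ldha, which ends at 46855627.

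Read assignment was least certain for the widely expressed enzymes. Each coding sequence was cut into all its 50-base words. A word was counted as shared when it also occurred, on either strand, in an annotated transcript of another gene. All of the coding words of Pgk1 and of Pgam1 were shared, as were 94.2% for Gapdh, 83.3% for Eno1, 65.8% for Pfkfb2 and 52.9% for Pkm. For Gapdh, 213 of the 223 other genes were pseudogenes. Of the 34 other members, 21 shared no coding word and 6 shared more than 50%. No germ-cell isozyme exceeded 9.6% (Aldoart1), and Pgk2, Ldhc and Pdha2 shared none. The values of Pgk1, Pgam1, Gapdh, Eno1, Pfkfb2 and Pkm are therefore uncertain, since the sources used here do not say how reads matching several places were treated. The Eno1 pseudogene Gm4735 itself held 672 and 555 counts in the LPS columns and 985 and 868 in the NC columns, so that reads with enolase sequence were also counted at this copy. Exons of 14 members overlapped those of another gene, by more than 10% of the length in 6 of them, among them Gapdhs (10.1%, an antisense transcript).

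**Figure D1:**
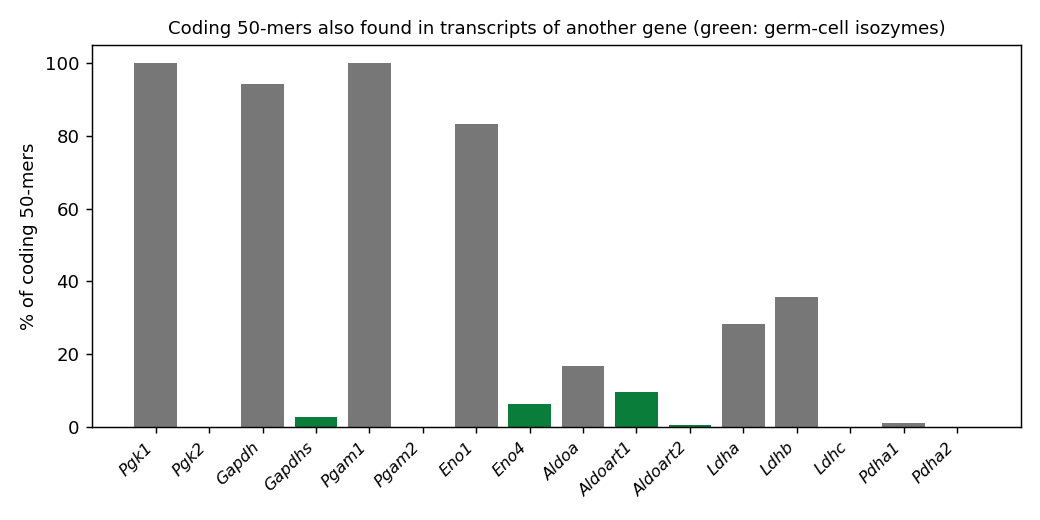
Percentage of coding 50-base words (y axis, percent; 1 bar per gene) that also occur in transcripts of another annotated gene, for 16 members from the steps with a germ-cell isozyme (green) and from the mutase step. The bars of Pgk1 and Pgam1 reach 100% and that of Gapdh 94.2%, and no germ-cell isozyme passes 9.6%.

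The libraries held 17612342 to 22451132 counts on genes, with 29393 to 30606 genes detected. Replicates of a group differed by more than sampling noise (chi-square per degree of freedom 2.31 in the LPS columns and 2.20 in the NC columns). Spry1, the targeted gene, was counted 45 and 41 times in the NC columns and 26 and 17 times in the LPS columns. Its log2 fold change was -0.82 ± 0.28 (SE, 2 libraries against 2, edgeR adjusted p = 0.0212), and over 11 alternative settings its largest adjusted p was 0.300, with DESeq2. The Spry1 call was also lost without LPS replicate 2, NC replicate 1 or NC replicate 2. A log2 fold change here is always LPS columns minus NC columns, ± is its standard error, and a gene was called higher or lower when its adjusted p was under 0.05 across the 20855 genes tested.

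More members were called lower than higher in the LPS columns. Of the 40 members tested, 12 fell, 3 rose and 25 did not pass the test. Across all genes tested, 16.3% were called lower and 15.2% higher (31.5% in either direction, with 51.7% of the calls lower, or 38.0% when libraries were scaled by size alone), and among the members 30.0% were called lower and 7.5% higher. The median log2 fold change was -0.06 over the members and 0.002 over all genes. No tested member had a log2 fold change beyond 0.82 in size. With DESeq2, 7 members were called lower in place of 12, and lower calls among all genes went from 3394 to 1743. Both were also fewer without NC replicate 1. The LPS and NC libraries did not overlap for 27 of the 40 members, or 67.5%, against 64.1% of all genes tested. Of these 27, 20 were lower and 7 higher in the LPS columns, and of all genes tested 32.0% lay apart and lower and 32.1% apart and higher. Among the germ-cell isozymes 3 of 7 were called, all lower, and among the other members 9 of 33 were lower and 3 higher. Pklr, the liver and red cell pyruvate kinase, had at most 1 count in any library and was too low to test. RNA from whole tissue cannot tell fewer cells of a type from less RNA per cell.

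The 7 genes listed as germ-cell isozymes made up more than 50% of the length-scaled RNA of the 41 genes in every library. In counts not scaled by length, these 7 genes held less than 50% in every library. Levels between genes are compared as TPM, counts per kilobase of the deposited gene length scaled to the same total in every library, and that length joins the exons of all variants, so that genes with many variants are scaled down. Gapdhs, the sperm-tail glyceraldehyde phosphate dehydrogenase, led with a mean of 3337.4 TPM over the 4 libraries, rank 17 of all gene rows. Ldhc, the lactate dehydrogenase subunit of germ cells, followed at 2835.6 TPM and Pgam2, the muscle-type phosphoglycerate mutase, at 2552.5 TPM. In this order the 3 genes held 27.1%, 23% and 20.7% of the members' total. Pgam2 is counted with the other members, and which cells of the testis it came from was not tested. The next were Bsg at 654.5, Hk1 at 394.5, Ldha at 334.9, Slc2a5 at 316.3 and Pgk2 at 276.9 TPM. Summed over the 7 germ-cell isozymes, their part of the members' TPM was 54.6% and 54.1% in the LPS columns and 56.5% and 55.9% in the NC columns. The 41 genes together took 1.05% and 1.07% of all counts in the LPS columns and 1.10% and 1.09% in the NC columns.

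**Figure D2:**
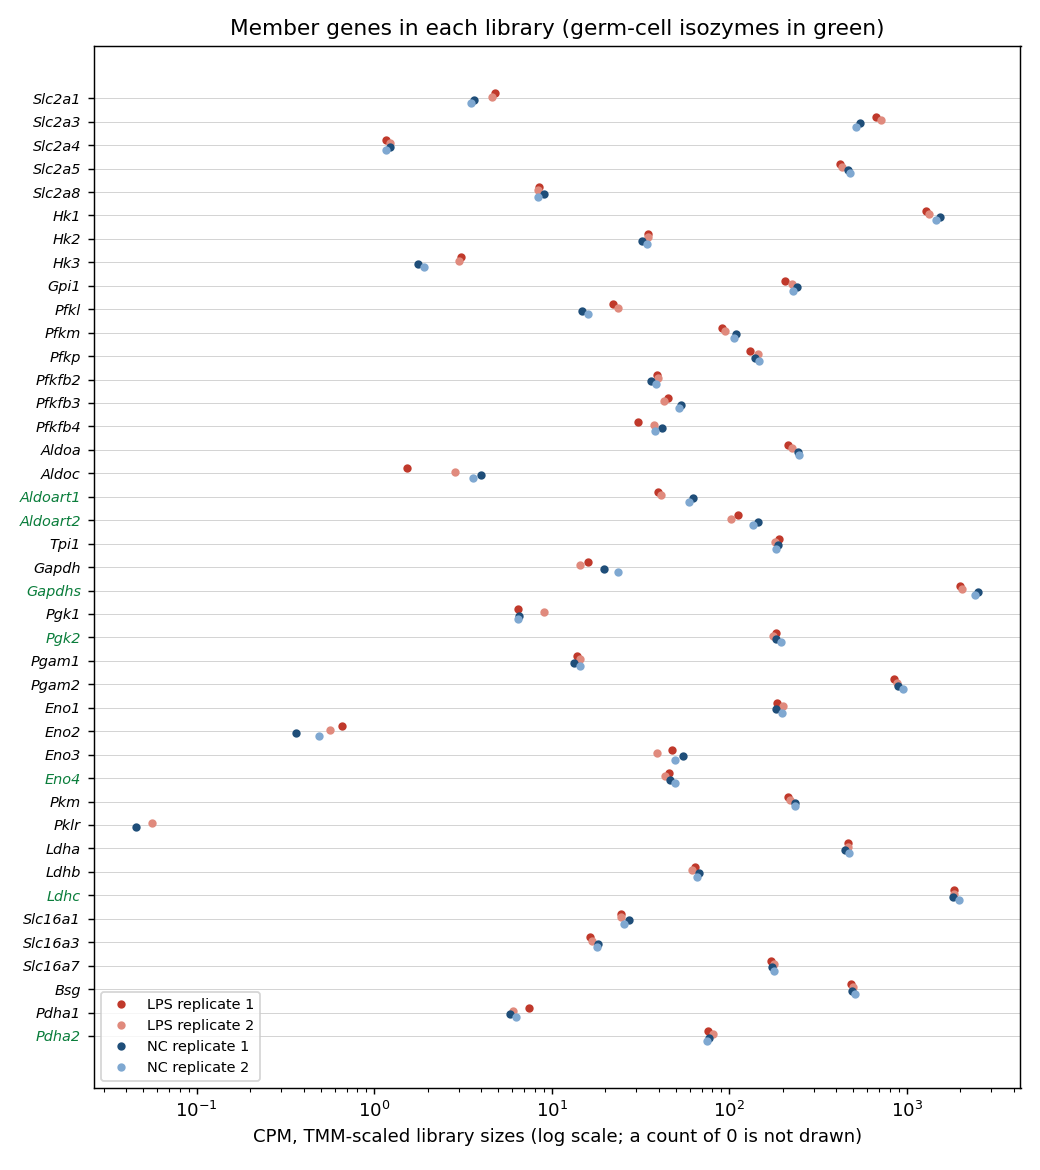
CPM of each member (x axis, log scale, not scaled by gene length) with 1 point per library, in pathway order and with the germ-cell isozymes named in green; a count of 0 is not drawn. Gapdhs lies farthest right, with its LPS libraries at 1988.2 and 2055.3 CPM to the left of its NC libraries at 2531.7 and 2418.4 CPM, and Pklr lies farthest left.

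**Figure D3:**
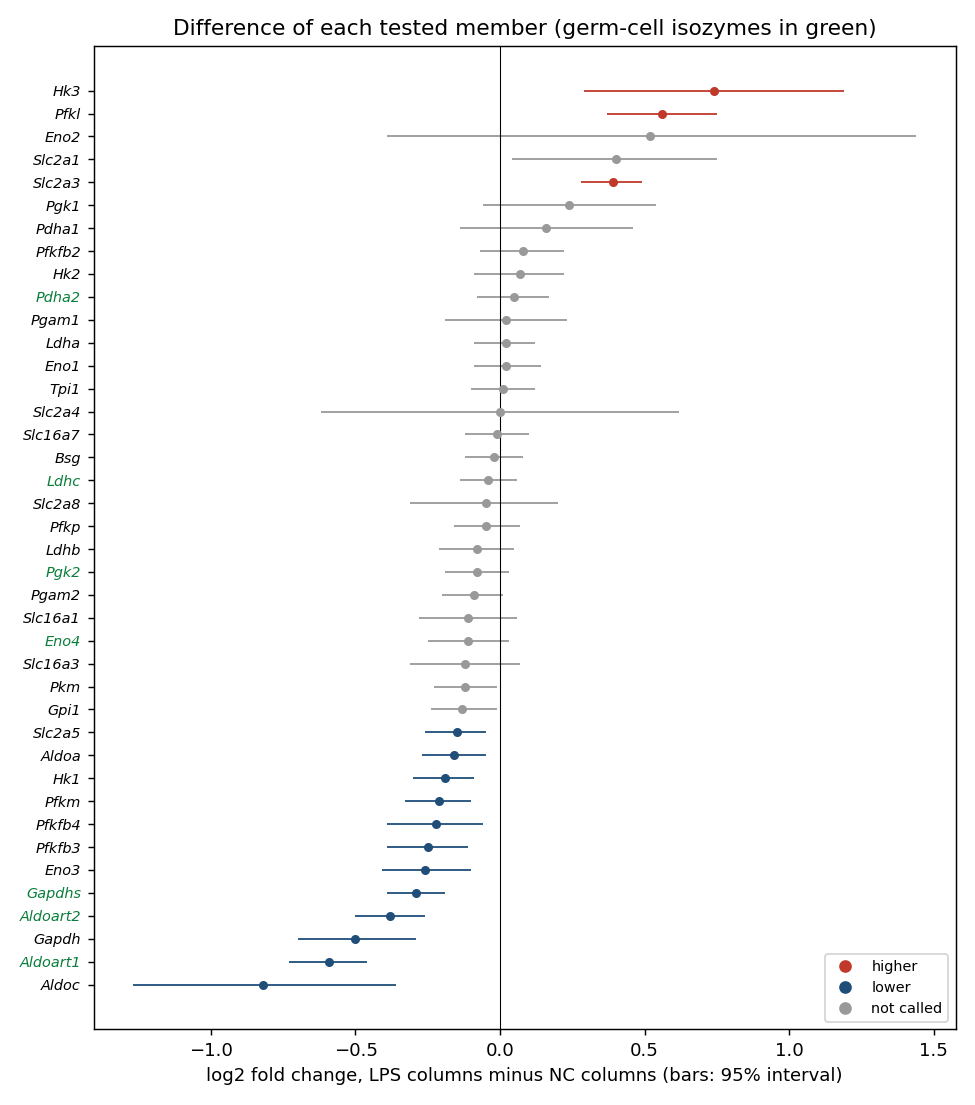
Log2 fold change of the 40 members tested (x axis, LPS columns minus NC columns), ordered by value, with bars for the 95% confidence interval and germ-cell isozymes named in green. The called members are 12 to the left of 0 and 3 to the right, and the germ-cell isozymes Pgk2, Eno4, Ldhc and Pdha2 have intervals that include 0.

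Among the sugar transporters, Slc2a3 rose and Slc2a5 fell. Slc2a3 encodes GLUT3, a high-affinity glucose transporter, and stood at 672.2 and 719.6 CPM (counts per 1000000 after TMM scaling) in the LPS columns and 546.4 and 518.2 CPM in the NC columns. Both LPS libraries lay above both NC libraries, and the log2 fold change was 0.39 ± 0.05 (adjusted p = 2.35e-07), called in all 11 alternatives. Slc2a5 encodes GLUT5, the fructose transporter, and stood at 418.0 and 433.2 CPM in the LPS columns and 469.2 and 478.1 CPM in the NC columns. Its log2 fold change was -0.15 ± 0.05 (adjusted p = 0.0176), but the call was lost with scaling by library size alone and without LPS replicate 1, NC replicate 1 or NC replicate 2, where its adjusted p reached 0.129. Slc2a1 encodes GLUT1, the basal glucose transporter that Sertoli cells use, and was counted only 95 and 82 times in the LPS columns and 80 and 72 in the NC columns. Its log2 fold change of 0.40 ± 0.17 did not pass the test (adjusted p = 0.0792). Slc2a4, the insulin-responsive GLUT4, held 22 to 27 counts per library, and Slc2a8, which encodes GLUT8, had a log2 fold change of -0.05 ± 0.13, and neither was called.

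The hexokinases, which trap glucose as its phosphate, moved apart. Hk1, the most abundant of the 3 in TPM and the source of germ-cell transcripts that gene-level counts do not separate, stood at 1289.1 and 1335.4 CPM in the LPS columns and 1538.8 and 1464.4 CPM in the NC columns. Both LPS libraries were below both NC libraries, with a log2 fold change of -0.19 ± 0.05 (adjusted p = 0.00253). Hk3, a hexokinase of myeloid cells, was counted 61 and 54 times in the LPS columns and 39 and 39 in the NC columns, a rise of 0.74 ± 0.22 on the log2 scale (adjusted p = 0.0099). The Hk3 call was lost with DESeq2, where the adjusted p was 0.215, and without NC replicate 1. Hk2, the inducible hexokinase, was not called (0.07 ± 0.08, adjusted p = 0.55). Gpi1, which isomerises glucose phosphate, had a log2 fold change of -0.13 ± 0.06 (adjusted p = 0.0819) and passed the test only without LPS replicate 2.

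Markers of myeloid cells are given beside these genes, with 15.2% of all genes tested called higher and 16.3% lower. Of 9 macrophage and monocyte markers tested, 5 rose and 3 fell, and their summed level was 84.6 to 98.2 CPM in the LPS columns and 54.2 to 59.5 CPM in the NC columns. Itgam, an integrin of myeloid cells, rose by 2.68 ± 0.18 and Cd163, a scavenger receptor of resident macrophages, had a log2 fold change of -2.00 ± 0.57. The other markers that fell were Csf1r (-0.74 ± 0.14, edgeR adjusted p = 8.03e-05) and Mrc1 (-0.67 ± 0.10, edgeR adjusted p = 1.5e-06). None of the 9 was at 0 in all libraries. The Cd163 call was lost with DESeq2 and without LPS replicate 2 or NC replicate 1. The part of these cells in the values of Hk3, Slc2a3 and the other members was not tested.

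The committed step, phosphofructokinase, changed in 2 of its 3 subunits and in opposite directions. Pfkl, the liver-type subunit, stood at 22.1 and 23.6 CPM in the LPS columns and 14.9 and 16.1 CPM in the NC columns, with a log2 fold change of 0.56 ± 0.09 (adjusted p = 1.2e-05), called in all 11 alternatives. Pfkm, the muscle-type subunit and the more abundant by TPM, stood at 91.3 and 95 CPM in the LPS columns and 109.0 and 106.9 CPM in the NC columns. It fell by 0.21 ± 0.06 on the log2 scale (adjusted p = 0.00431), and its call was lost without NC replicate 1, where the adjusted p was 0.053, the largest of its alternatives. Pfkp, the platelet-type subunit, was not called (-0.05 ± 0.06).

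The bifunctional enzymes that make and remove fructose-2,6-bisphosphate, an activator of phosphofructokinase that is not itself cleaved in glycolysis, were lower or did not pass. Pfkfb3 stood at 45.3 and 43.1 CPM in the LPS columns and 53.3 and 52.0 CPM in the NC columns, a log2 fold change of -0.25 ± 0.07 (adjusted p = 0.00396). This call was lost with DESeq2, where the adjusted p of 0.0596 was the largest, and without LPS replicate 2. Pfkfb4, the form best known from testis, stood at 30.8 and 37.6 CPM in the LPS columns and 41.6 and 38.1 CPM in the NC columns. LPS replicate 2 lay just under NC replicate 2, and the log2 fold change of -0.22 ± 0.08 (adjusted p = 0.0318) became -0.08 without LPS replicate 1. The Pfkfb4 call was also lost without NC replicate 1, with DESeq2 and with scaling by library size alone, and its adjusted p reached 0.552. Pfkfb2, the heart-type form, was not called (0.08 ± 0.07).

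All 4 aldolase members, whose enzymes cleave fructose-1,6-bisphosphate into trioses, fell in the LPS columns. Aldoart1 stood at 39.5 and 41.2 CPM in the LPS columns and 62.5 and 59.3 CPM in the NC columns. The LPS libraries averaged 66.2% of the NC level, a log2 fold change of -0.59 ± 0.07 (adjusted p = 8.38e-09). Aldoart2 stood at 112.3 and 102.2 CPM in the LPS columns and 144.9 and 135.2 CPM in the NC columns, a log2 fold change of -0.38 ± 0.06 (adjusted p = 3.17e-06). Both germ-cell aldolases kept their calls in all 11 alternatives, with largest adjusted p-values of 7.73e-07 for Aldoart1 and 0.000152 for Aldoart2. Aldoa, the widely expressed aldolase, stood at 215.4 and 226.4 CPM in the LPS columns and 245.0 and 248.7 CPM in the NC columns. Its log2 fold change was -0.16 ± 0.05 (adjusted p = 0.0181). The Aldoa call was lost with DESeq2, with scaling by library size alone and without LPS replicate 1, NC replicate 1 or NC replicate 2, with adjusted p up to 0.14. Aldoc, the brain-type aldolase, was counted 30 and 51 times in the LPS columns and 88 and 74 in the NC columns, a log2 fold change of -0.82 ± 0.23 (adjusted p = 0.00492). Without LPS replicate 1 the Aldoc value became -0.41 and the call was lost (adjusted p = 0.215, the largest of its alternatives), as it was with DESeq2. After scaling by gene length, the 2 germ-cell genes held most of the TPM of the 4 aldolase members in every library. Their share was 60.1% and 57.24% in the LPS columns and 63.97% and 62.16% in the NC columns. This majority depends on the scaling, with lengths of 3762 bases for Aldoa, 2052 for Aldoart1 and 1658 for Aldoart2. In the CPM above, which are not scaled by length, Aldoa exceeded the 2 germ-cell genes together in every library.

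Triose phosphate isomerase, encoded by Tpi1, did not pass the test (0.01 ± 0.05), whereas both glyceraldehyde phosphate dehydrogenases fell. Gapdhs stood at 1988.2 and 2055.3 CPM in the LPS columns and 2531.7 and 2418.4 CPM in the NC columns. Both LPS libraries lay below both NC libraries, at 81.7% of the NC level, a log2 fold change of -0.29 ± 0.05 (adjusted p = 1.52e-05) that was called in all 11 alternatives. Gapdh, the housekeeping enzyme, stood at 16.1 and 14.4 CPM in the LPS columns and 19.7 and 23.5 CPM in the NC columns, a log2 fold change of -0.50 ± 0.10 (adjusted p = 0.000183), also called in all 11 alternatives. Gapdh is the member whose reads are hardest to place among those called, with 94.2% of its coding words shared. Its level was 8.63 to 13.1 TPM, scaled by a joined length of 4133 bases, against 1610 for Gapdhs. The part of shared words or of length in this level was not tested. Gapdhs held 99.62% to 99.73% of this step's TPM.

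Phosphoglycerate kinase and mutase, which form and rearrange phosphoglycerate, gave no call for any of 4 genes with edgeR, DESeq2 or limma-voom, and 0 had an unadjusted p under 0.05 with edgeR. Pgk2, the autosomal kinase of meiotic and later germ cells, stood at 182.7 and 175.6 CPM in the LPS columns and 183.1 and 194.9 CPM in the NC columns. Its log2 fold change was -0.08 with a 95% confidence interval from -0.19 to 0.03 (adjusted p = 0.306), and it held 96.49% to 97.7% of the step's TPM. Pgk1, with 127 and 161 counts in the LPS columns and 144 and 133 in the NC columns, was not called (0.24 ± 0.15), and passed only without LPS replicate 1 (log2 fold change 0.47). Pgam2 stood at 846.9 and 885.2 CPM in the LPS columns and 896.4 and 953.3 CPM in the NC columns, a log2 fold change of -0.09 ± 0.05 that did not pass (adjusted p = 0.158). Pgam1, the brain-type mutase, was at 17.1 to 19.6 TPM and was not called (0.02 ± 0.10), and the TPM of Pgam2 was between 133.6 and 146.3 times that of Pgam1.

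Enolase and pyruvate kinase, the last steps to pyruvate, gave 1 call. Eno3, the muscle-type enolase, stood at 47.8 and 39.3 CPM in the LPS columns and 54.7 and 49.6 CPM in the NC columns, a log2 fold change of -0.26 ± 0.08 (adjusted p = 0.00898). Without LPS replicate 2 it became -0.12 and was no longer called (adjusted p = 0.31, the largest of its alternatives). The Eno3 call was also lost without NC replicate 1, with DESeq2 and with scaling by library size alone. Eno4, the enolase needed for sperm motility, stood at 45.5 and 43.5 CPM in the LPS columns and 46.2 and 49.7 CPM in the NC columns and was not called (-0.11, 95% confidence interval -0.25 to 0.03). Eno1, the widely expressed enolase, was not called (0.02 ± 0.06), nor was the neuronal Eno2 with 8 to 13 counts per library (0.52 ± 0.45). Pkm, the pyruvate kinase of most tissues, had a log2 fold change of -0.12 ± 0.05 (adjusted p = 0.0793).

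None of the 7 members for lactate and pyruvate exchange passed the test with edgeR, DESeq2 or limma-voom, and 0 had an unadjusted p under 0.05 with edgeR. Ldhc stood at 1836.8 and 1850.3 CPM in the LPS columns and 1832.8 and 1960.3 CPM in the NC columns. The groups overlapped, and the log2 fold change was -0.04 with a 95% confidence interval from -0.14 to 0.06. Ldha, the subunit that favours lactate formation, stood at 464.7 and 465.5 CPM in the LPS columns and 449.1 and 470.1 CPM in the NC columns (0.02 ± 0.05). Ldhb, the subunit that favours lactate use, had a log2 fold change of -0.08 ± 0.06. The transporters Slc16a1 (MCT1), Slc16a3 (MCT4, an exporter of lactate) and Slc16a7 (MCT2, of higher affinity) had log2 fold changes of -0.11 ± 0.08, -0.12 ± 0.09 and -0.01 ± 0.05. Bsg, the chaperone basigin that carries monocarboxylate transporters to the cell surface, stood at 487.1 and 495.9 CPM in the LPS columns and 490.9 and 507.8 CPM in the NC columns, with a 95% confidence interval from -0.12 to 0.08.

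Pyruvate dehydrogenase E1 alpha, which passes pyruvate into the mitochondrial cycle, gave no call for its 2 genes with edgeR, DESeq2 or limma-voom, and 0 had an unadjusted p under 0.05 with edgeR. Pdha2, the germ-cell copy, stood at 75.6 and 81.4 CPM in the LPS columns and 76.4 and 75.2 CPM in the NC columns (log2 fold change 0.05, 95% confidence interval -0.08 to 0.17). Pdha1, its X-linked relative, had 108 to 147 counts per library and a log2 fold change of 0.16 ± 0.15. Pdha2 held 94.15% to 95.53% of the TPM of this subunit.

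The balance between germ-cell and other isozymes was then compared step by step, as the log2 ratio of their TPM in each library. At the aldolase step the ratio of Aldoart1 and Aldoart2 to Aldoa and Aldoc was 1.51 and 1.34 in the LPS columns and 1.78 and 1.64 in the NC columns. The groups did not overlap, with a log2 difference of -0.27 against a pooled SD of 0.10 between replicates. In the exact two-sided permutation test this gave p = 0.333, the smallest that 2 libraries against 2 allow, and 1 after adjustment over the 6 steps. At the other 5 steps the groups overlapped, with log2 differences of 0.21 for Gapdhs against Gapdh, -0.30 for Pgk2 against Pgk1, -0.01 for Eno4, -0.04 for Ldhc and -0.10 for Pdha2 (exact permutation p from 0.667 to 1). Of the TPM of Ldha, Ldhb and Ldhc together, Ldhc held 86.51% to 87.09% in each library, and Eno4 held 21.53% to 22.74% of that of the 4 enolase members. Gapdh, Pgk1 and Eno1 shared 94.2%, 100% and 83.3% of their coding words with other genes. Gapdhs, Pgk2 and Eno4 shared 2.9%, 0% and 6.4%. Gapdh was also scaled by 4133 bases and Gapdhs by 1610. At the aldolase step Aldoa was scaled by 3762 bases, Aldoart1 by 2052 and Aldoart2 by 1658. Reads lost from the widely expressed genes would raise the share of the germ-cell isozymes, and this was not tested. Ldhal6b, another lactate dehydrogenase gene, is no member and stood at 1203.5 and 1239.8 TPM in the LPS columns and 1128.8 and 1140.7 TPM in the NC columns, without a call (log2 fold change 0.01 ± 0.05). Adding Ldhal6b to the total was a choice made after the data were seen. Ldhc then held 63.5% and 63.3% in the LPS columns and 63.7% and 64.6% in the NC columns. Ldhal6b held 26.6% and 27.0% in the LPS columns and 26.5% and 25.8% in the NC columns. With Ldhal6b counted among the other isozymes, the log2 difference was -0.05. Which cells express Ldhal6b was not tested, so this need not be a balance of germ-cell against somatic forms. The ratio of Gapdhs to Ldhc, a pair chosen after the values were seen, was 1.06 and 1.09 in the LPS columns and 1.36 and 1.21 in the NC columns. These groups did not overlap, but Gapdhs was already called lower and Ldhc was not. The gap therefore follows from the choice of the pair and adds no support.

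**Figure D4:**
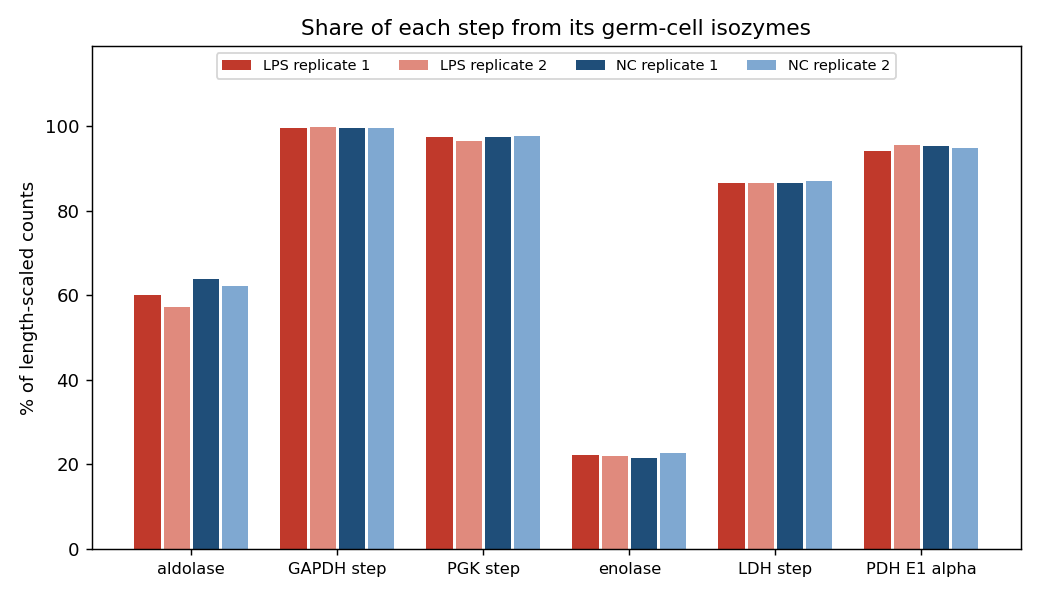
Share of the length-scaled counts of each step's members that came from the germ-cell isozymes (y axis, percent), with 1 bar per library. At the aldolase step both LPS bars (60.1% and 57.24%) are shorter than both NC bars (63.97% and 62.16%), and at the other 5 steps the groups overlap. Gapdh, Pgk1 and Eno1 share most of their coding words with other genes, so the shares of their steps are uncertain. The aldolase shares depend on gene length, which is 3762 bases for Aldoa, 2052 for Aldoart1 and 1658 for Aldoart2.

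Markers of the germ-cell stages are given beside the germ-cell isozymes, and are read against the 16.3% called lower and 15.2% called higher among all genes tested (31.5% in all). Of 12 markers of elongating spermatids 9 fell and none rose, with a median log2 fold change of -0.27, and their summed level was 17094.8 to 17512.8 CPM in the LPS columns and 23256.5 to 24012.4 CPM in the NC columns. Prm2, a protamine that packs sperm DNA, fell by 0.69 ± 0.05, Spem1, needed to shape the sperm head, fell by 0.51 ± 0.06, and the protamine Prm1 fell by 0.48 ± 0.05. Of 10 round spermatid markers 3 rose and 4 fell (median -0.15, sums of 1884.2 to 1908.7 CPM against 1869.8 to 1901.9 CPM). Of 10 spermatocyte markers 2 rose and 2 fell, near that background (median -0.06, sums of 1213.8 to 1361.3 CPM against 1350.3 to 1395.9 CPM). Of 8 spermatogonial markers tested 4 rose and none fell (median 0.32, sums of 131.1 to 140.9 CPM against 99.6 to 107.6 CPM). No marker of these 4 lists was at 0 in all libraries. The counts of the 3 earlier stages moved when a library was left out: the 4 spermatogonial calls became 1 without NC replicate 1 and 2 without LPS replicate 2, and the 2 lower spermatocyte calls became 1 and 0. Of the 4 lower calls among round spermatids, 2 were left without NC replicate 1 and 2 without NC replicate 2. The called isozymes Aldoart1, Aldoart2 and Gapdhs had log2 fold changes between -0.59 and -0.29, and Ldhc, Pgk2, Eno4 and Pdha2 between -0.11 and 0.05. The part of the stage composition in these values was not tested.

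**Figure D5:**
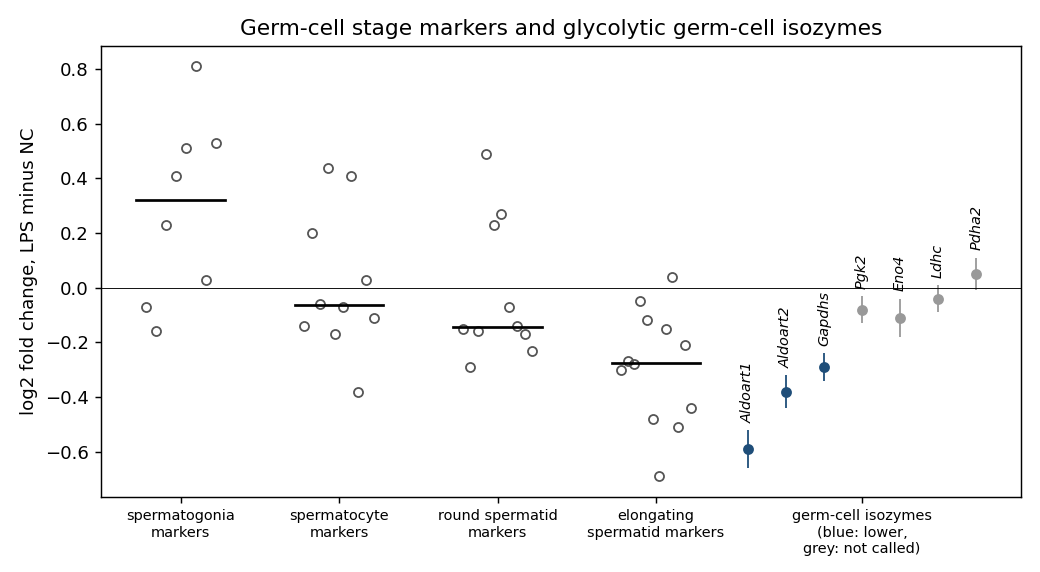
Log2 fold changes (y axis, LPS columns minus NC columns) of the markers of 4 germ-cell stages, with 1 open circle per gene and a line at each median, beside the 7 germ-cell isozymes with bars of ± 1 SE. The elongating spermatid markers have a median of -0.27 and the spermatogonial markers one of 0.32, and the isozymes run from -0.59 for Aldoart1 to 0.05 for Pdha2.

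Markers of Sertoli cells, which supply lactate, and of other somatic cells were counted against the same background. Of 12 Sertoli cell markers 6 rose and 1 fell (median 0.33, sums of 717.1 to 757.8 CPM against 521.4 to 567.8 CPM). Rhox5, a homeobox gene of Sertoli cells, rose by 0.72 ± 0.09, and the single marker that fell, Trf, kept its call in neither DESeq2 nor library-size scaling, nor without LPS replicate 2 or NC replicate 2. Of 8 Leydig cell markers 5 fell and 1 rose (median -1.14, sums of 451.5 to 522.5 CPM against 865.5 to 906.2 CPM), and Cyp17a1, a steroidogenic enzyme, had a log2 fold change of -2.46 ± 0.07. The Leydig marker that rose, Cyp11a1, was not called without LPS replicate 2. Of 6 peritubular markers 4 rose and 1 fell (median 0.59, sums of 461.9 to 464.9 CPM against 420.8 to 434.4 CPM). Of 5 endothelial markers tested 2 rose and 1 fell (median 0.32, sums of 23.4 to 26.3 CPM against 20.9 to 26.0 CPM), with 1 rising without LPS replicate 2 and 0 falling without NC replicate 1. Of 4 erythroid markers tested none rose and 2 fell (median -0.65, sums of 11.2 to 11.8 CPM against 17.2 to 20.6 CPM), the erythroid call of Slc4a1 being lost without LPS replicate 1 or NC replicate 2. No marker of these lists was at 0 in all libraries, and their part in the values of the members was not tested.

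Genes that surround the pathway were counted from lists, beside 15.2% higher and 16.3% lower among all genes. In pyruvate handling, with the mitochondrial carrier, the pyruvate dehydrogenase complex and its kinases and phosphatases, none of 14 genes tested was called by edgeR, DESeq2 or limma-voom (median 0.01), and 1 had an unadjusted p under 0.05. With edgeR, 1 of these genes was called higher without LPS replicate 1 and 1 without NC replicate 2. Of 11 genes of the pentose phosphate pathway 2 rose and none fell (median 0.09). H6pd, the hexose phosphate dehydrogenase of the endoplasmic reticulum, stood at 13.3 and 14.8 CPM in the LPS columns and 9.22 and 8.09 CPM in the NC columns, a rise of 0.69 ± 0.12 (adjusted p = 1.14e-05). Pgd, phosphogluconate dehydrogenase, rose by 0.29 ± 0.10, a call lost with DESeq2 and without LPS replicate 1 or NC replicate 2.

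Gluconeogenesis and glycogen genes gave 4 lower and 1 higher of 19 tested (median 0.00), beside 16.3% lower and 15.2% higher among all genes. The lower ones with the largest changes were Gbe1, the glycogen branching enzyme (-0.66 ± 0.21), Pygm, the muscle glycogen phosphorylase (-0.60 ± 0.22), and G6pc3, a glucose phosphatase (-0.20 ± 0.07). The higher one was Phka1, a subunit of phosphorylase kinase (0.58 ± 0.21). None of these 4 was called with DESeq2 or without LPS replicate 1 or NC replicate 2. Pygm, G6pc3 and Phka1 were not called without LPS replicate 2 either, and Pygm and G6pc3 also not without NC replicate 1.

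Among the other hexokinases, phosphofructokinase regulators and sugar and monocarboxylate transporters, 1 rose and 3 fell of 21 tested (median 0.01). Of all genes tested, 15.2% rose and 16.3% fell. Ldhd, the mitochondrial enzyme that oxidises D-lactate, stood at 17.6 and 20.6 CPM in the LPS columns and 6.82 and 6.92 CPM in the NC columns. Its log2 fold change of 1.47 ± 0.12 (adjusted p = 7.83e-13) was larger than that of any of the 40 members tested. Sord, the sorbitol dehydrogenase that makes fructose, stood at 393.7 and 422.6 CPM in the LPS columns and 503.1 and 525.7 CPM in the NC columns (-0.33 ± 0.05, adjusted p = 3.86e-06). Bpgm, bisphosphoglycerate mutase, fell by 0.25 ± 0.06, a call lost without NC replicate 2, and Gpd2, the mitochondrial glycerol phosphate dehydrogenase, fell by 0.19 ± 0.05.

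Other germ-cell isozymes of energy metabolism gave 5 lower and none higher of 12 (median -0.13), beside 16.3% lower and 15.2% higher among all genes. Oxct2b and Oxct2a, the germ-cell transferases that activate ketone bodies and a pair whose reads are hard to separate, had log2 fold changes of -0.50 ± 0.06 and -0.42 ± 0.07. Acsbg2, an acyl-CoA synthetase of testis, fell by 0.29 ± 0.05. In the hypoxia-inducible factor pathway, which controls many glycolytic genes in other tissues, 3 genes rose and 2 fell of 22 tested (median 0.02). Neither count exceeded the share among all genes tested, 15.2% higher and 16.3% lower. Ndrg1, a stress-responsive gene, rose by 0.84 ± 0.11, Hif1a, the oxygen-sensitive subunit, rose by 0.41 ± 0.09 and Mxi1, a repressor of the Myc network, rose by 0.14 ± 0.05. Hif3a, a related subunit, had a log2 fold change of -0.94 ± 0.19 and Ankrd37 one of -0.56 ± 0.15. The Mxi1 call was lost with DESeq2 and on leaving out any 1 of the 4 libraries, and that of Ankrd37 with DESeq2 and without LPS replicate 1 or NC replicate 1.

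RefSeq promoters of build GRCm38.p6, from 250 bases before to 50 bases after the start, were held for 36 of the 41 members. A gene was counted when any of its listed promoters held a match, so genes with several promoters had more chances to match. The letters ACGTG or GCGTG, the core of the hypoxia response element, were sought on either strand. They occurred in 75.0% of the 36 genes and in 46.7% of all 27025 genes with a promoter, or 43.8% of all 32851 promoters. Among the germ-cell isozymes 3 of 6 held one of these and among the other members 24 of 30. TGACG, the core of the cAMP response element that germ-cell promoters often use, occurred in 27.8% of the 36 and 23% of all genes, and in 2 of the 6 germ-cell isozymes. These matches describe the letters only, and no binding was measured.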

How the data were processed

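Libraries were made from total RNA with a stranded mRNA kit, per the labels' protocols. The deposited table holds raw counts per gene with the columns that featureCounts writes, per the file headers, and the deposited gene length is the joined exon length in bases. Per the submitters' processing notes, the build was mm10 and the tools included STAR 2.5.3a, Trimmomatic 0.36, Subread 1.5.1 with featureCounts, DESeq and edgeR 3.12.1. The sources used here do not give the strand setting or the treatment of reads matching several genes, so overlapping antisense genes may share reads. Counts were fitted with edgeR 4.0.16 in R 4.3.3 (filterByExpr, TMM, quasi-likelihood test, no covariates, Benjamini-Hochberg adjustment over 20855 genes), after the code was tested on simulated data. In that simulation edgeR recovered 63.6% of the 1.5-fold changes and 72.4% of the 2-fold changes, and DESeq2 51% of either. Only 200 genes were changed there, drawn from all levels of expression. In the data 31.5% of genes were called, which makes the adjustment for many tests less strict. These rates therefore do not give the power for the members. A gene that was not called may still differ. Standard errors follow from the F statistic. Alternatives were DESeq2 1.42.0, limma-voom 3.58.1, other scalings and filters, a replicate block and leaving out each library. All members are reported, and from each other list at most the 3 genes called higher and the 3 called lower with the largest changes are named. The members and lists were chosen with earlier results of these data known. The lists were pyruvate handling, gluconeogenesis and glycogen, the pentose phosphate pathway, other transporters and regulators, the hypoxia-inducible factor pathway, other germ-cell isozymes, and markers of 4 germ-cell stages and of Sertoli, Leydig, peritubular, endothelial, myeloid and erythroid cells.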

Additional observations from a re-analysis of the deposited data

How the results depend on the processing

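Calls of the members were recomputed under 11 alternatives, except that Eno2 had 10, being removed by the filter of 1 CPM in 2 libraries, and Pklr was not tested. Step ratios were recomputed under 5 alternatives, and lactate dehydrogenase also with Ldhal6b. No called gene changed direction in the alternatives run. The 3 lower calls of germ-cell isozymes (Aldoart1, Aldoart2 and Gapdhs) were made in all 11. Among all genes DESeq2 called 1367 higher and 1743 lower, against 3169 and 3394 with edgeR. Higher and lower calls among all genes were also fewer when any 1 library was left out. The member counts below are to be read beside this general loss. Members called lower numbered 7 with DESeq2 and 7 to 11 when 1 library was left out, with 7 without NC replicate 1. Other members called lower numbered 4 with DESeq2, 5 with scaling by library size alone, and 4 to 8 when 1 library was left out (4 without NC replicate 1, 5 without LPS replicate 1). Scaling by library size alone moved the median of all genes from 0.002 to 0.066 on the log2 scale and the lower part of all calls from 51.7% to 38.0%. It made the call of Slc2a1 (log2 fold change 0.46, adjusted p = 0.0408) and lost those of Aldoa, Eno3, Pfkfb4 and Slc2a5. The log2 difference at the enolase step was -0.07 without scaling by gene length, against -0.01. Replicate numbers are shared by the groups, but nothing says that they pair samples, and the deviations of same-numbered libraries correlated at 0.015. A fit with the replicate number as a block called 3376 genes higher and 3594 lower and the same 15 members. Where a group was left with 1 library, that library is assumed to vary like the others. Depth limits Hk3, Aldoc, Eno2, Slc2a1, Slc2a4, Slc2a8, Pgk1, Pdha1 and Pklr, which held under 200 counts per library.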
